A study of Mus musculus with 6 samples.

Results

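The genes described here encode the enzymes of serine and glycine synthesis, the folate and methionine cycles, and de novo purine and pyrimidine synthesis. They are the 36 rows of the deposited count table whose Ensembl mouse identifiers map to a fixed list of symbols, out of 32285 rows in all. All 36 were found, and 35 had enough counts to be tested. The exception was Ftcd, at 2 to 7 counts per library. The measurements are mRNA sequencing libraries of mouse germline stem cells, which are cultured spermatogonial stem cells, from a single wild-type line labelled DBA-GFP GS cell. One group of 3 libraries came from cells in a medium named for 8 mM pyruvate, the other group of 3 from cells in complete medium (control). Both groups share the line and the genotype. The sources used here do not give the media's composition beyond these names, the time in culture, whether feeder cells were present or whether the cultures were independent. The p-values therefore rest on the spread among these 6 libraries, part of which may be technical.

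Serine is made from a glycolytic intermediate by 3 enzymes in sequence, and its side-chain carbon passes to tetrahydrofolate as serine is turned into glycine. Folate-bound carbon is then used to close the purine ring, to make thymidylate and to remethylate homocysteine to methionine, the precursor of the methyl donor S-adenosylmethionine. Purine and pyrimidine synthesis both draw on phosphoribosyl pyrophosphate (PRPP), an activated ribose, and proliferating cells depend on these routes for DNA and RNA.

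Library totals ran from 21830090 to 25562768 counts in pyruvate medium and from 20918312 to 26413080 in control. Levels are given as CPM, the usual depth-scaled count, with each library total adjusted by edgeR's TMM factor. Over the unadjusted library totals, a floor of 3 counts was 0.114 to 0.143 CPM, covering counting error only. Control replicate 2 stood apart from the others, at 36.5 on the first principal component against -4.12 and 0.81 for the other controls and -27.2 to -1.42 for the pyruvate libraries. The main results that rest on it are given with and without it. Pyruvate replicate 1, at -27.2, also lay away from the other pyruvate libraries, at -1.42 and -4.64. Without it edgeR called 0 of the 35 genes described here and 1 gene in all. Germline and undifferentiated spermatogonial markers were all tested (15 of 15), with a summed level of 4022 to 4281 CPM in pyruvate libraries and 3903 to 4653 CPM in control libraries. Of the 15, 8 had a log2 fold change above 0 and 7 below. Nanos2 and Nanos3 were higher and Thy1 lower in pyruvate medium without overlap. Differentiation and meiosis markers, 7 of 7 tested, summed to 674, 539 and 511 CPM in pyruvate libraries 1, 2 and 3 and 659, 635 and 651 CPM in control libraries, so that pyruvate replicate 1 alone stood at the control level. Among them Stra8, a meiotic entry gene, had 161, 86.3 and 76.3 CPM in pyruvate libraries against 144, 116 and 144 CPM in control libraries, and Kit, a receptor of differentiating spermatogonia, 45.5, 21.8 and 21.8 against 37.9, 47.02 and 36.03 CPM. The 7 did not move together: 4 had a log2 fold change above 0 and 3 below. Sohlh1 (93.8, 57.7 and 54.5 CPM in pyruvate libraries against 54.2, 44.5 and 50.5 in control libraries) and Spo11 were higher without overlap. Sohlh2, the largest part of the sum, was lower without overlap (319, 315 and 307 against 377, 369 and 372 CPM). Fibroblast and mesenchymal markers, 8 of 10 tested, summed to 376 to 413 CPM in pyruvate and 391 to 455 CPM in control. Most of this sum was Fn1, at 286, 281 and 285 CPM in pyruvate libraries and 302, 352 and 304 CPM in control libraries. Of the 8 tested, 2 had a log2 fold change above 0 and 6 below. Fn1 and Pdgfra were lower without overlap. Col1a1 was higher without overlap, at 81.9, 57.6 and 58.9 CPM in pyruvate libraries against 52.8, 52.9 and 48.4 CPM in control libraries. Sertoli markers (3 of 7 tested) summed to 23.4 to 29.1 CPM in pyruvate and 24.96 to 29.04 CPM in control. Leydig markers (1 of 5 tested, Hsd3b1 and Insl3 at 0 counts) summed to 2.64 to 2.86 CPM in pyruvate and 2.82 to 4.003 CPM in control. Macrophage and immune markers (1 of 6 tested, Adgre1 at 0 counts) summed to 4.95 to 6.29 CPM in pyruvate and 4.63 to 7.06 CPM in control. In such bulk samples fewer cells of a type and less RNA per cell cannot be told apart, and the part of other cell types in the results was not tested.

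Per kb of exon, merged over all annotated transcripts of a gene, the levels of these enzymes differed far more between genes than between media. The order between genes depends on this annotated length. Shmt2, the mitochondrial enzyme that moves carbon from serine to folate, had the highest mean at 104 CPM per kb of exon in pyruvate medium and 113 CPM per kb in control. Phgdh, the first enzyme of serine synthesis, stood at 104 CPM per kb in pyruvate and 103 in control. Impdh2, which commits purines to guanine nucleotides, stood at 99.6 CPM per kb in pyruvate and 105 in control. Ctps, which makes CTP from UTP, stood at 94.03 CPM per kb in pyruvate and 97.5 in control. Cad, the protein carrying the opening 3 activities of pyrimidine synthesis, stood at 91.6 CPM per kb in pyruvate and 95.4 in control. These 5 overlapped their neighbours in the order over the 6 libraries, but Cad, the lowest of them, lay above Paics in all 6. A long middle stretch from Gart at 40.7 CPM per kb in both media down to Adsl at 23.3 in pyruvate and 24.6 in control held 13 genes, each overlapping the next. Mat2b, Psph and Mtrr formed separate steps below it, at 15.6, 10.9 and 6.91 CPM per kb in pyruvate and 14.8, 10.1 and 6.98 in control. Aldh1l1, Mthfd2l, Aldh1l2 and Ftcd were at the bottom, between 0.0595 and 0.375 CPM per kb in pyruvate and between 0.0519 and 0.128 in control. Aldh1l1 and Aldh1l2 oxidise formyl-folate to carbon dioxide, in the cytosol and the mitochondria.

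**Figure D1:**
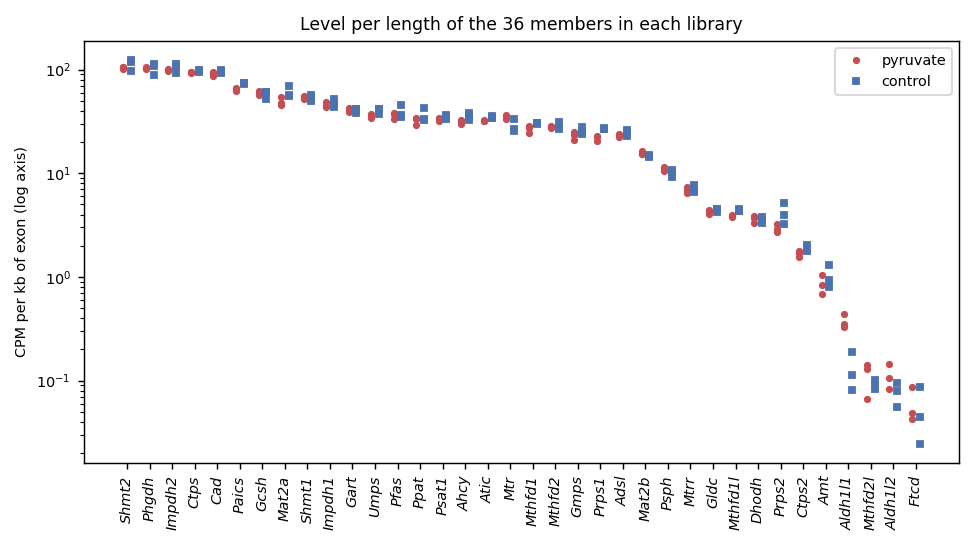
Level of each of the 36 genes in CPM per kb of exon (log axis) in the 3 pyruvate libraries (circles, left) and the 3 control libraries (squares, right), ordered by mean level. Shmt2, Phgdh, Impdh2, Ctps and Cad lead, and the spread between libraries is small beside the spread between genes, except in the genes of lowest level.

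The comparison of pyruvate with complete medium asks how transcript levels differ between the culture media, in a study of the energy balance of these stem cells. With all libraries, 0 of 35 genes had an adjusted p under 0.05 in edgeR's quasi-likelihood test (Benjamini-Hochberg over all genes tested), against 8 of 14912 genes overall (0.0536%, with 0.0201% higher and 0.0335% lower). An unadjusted p under 0.05 was reached by 6 of the 35, 2 higher and 4 lower in pyruvate medium, against 14.4% of all genes tested. The media gave values that did not overlap for 11 of the 35, 3 higher and 8 lower, where 22.5% of all genes tested did not overlap (11.9% higher and 10.6% lower). DESeq2 gave no adjusted p to Mthfd2l and Aldh1l2. Of the rest of the 35 it called 1, Aldh1l1, which rose, where it called 2.3% of the genes to which it gave an adjusted p (1.32% higher and 0.981% lower). limma-voom called 0 of the 35, where it called 8 of all genes tested (3 higher and 5 lower). Without control replicate 2, edgeR called 1 of the 35, Mtr, which rose, where 4.16% of all genes were called (2.33% higher and 1.82% lower). The median log2 fold change, pyruvate over control, was -0.069 over the 35 and -0.010 over all genes tested, and 11 of the 35 lay above 0, against 48.1% of all genes tested. The median size of the difference, regardless of sign, was 0.11 on the log2 scale for the 35 and 0.14 for all genes tested.

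Differences under 1.2-fold were found for 28 of the 35, from -0.24 to 0.11 on the log2 scale with SE of 0.064 to 0.24. Of all genes tested, 74.6% were under 1.2-fold. The other 7 were Aldh1l1, Aldh1l2, Mthfd2l and Mtr, higher in pyruvate medium, and Prps1, Prps2 and Mat2a, lower. None of these 7 passed edgeR's test over all genes with all libraries (adjusted p between 0.116 and 0.733). All 3 genes of serine synthesis, all 5 of glycine and serine interconversion, all 6 of the purine ring, all 3 of the guanine branch and all 5 of pyrimidine synthesis were under 1.2-fold.

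**Figure D2:**
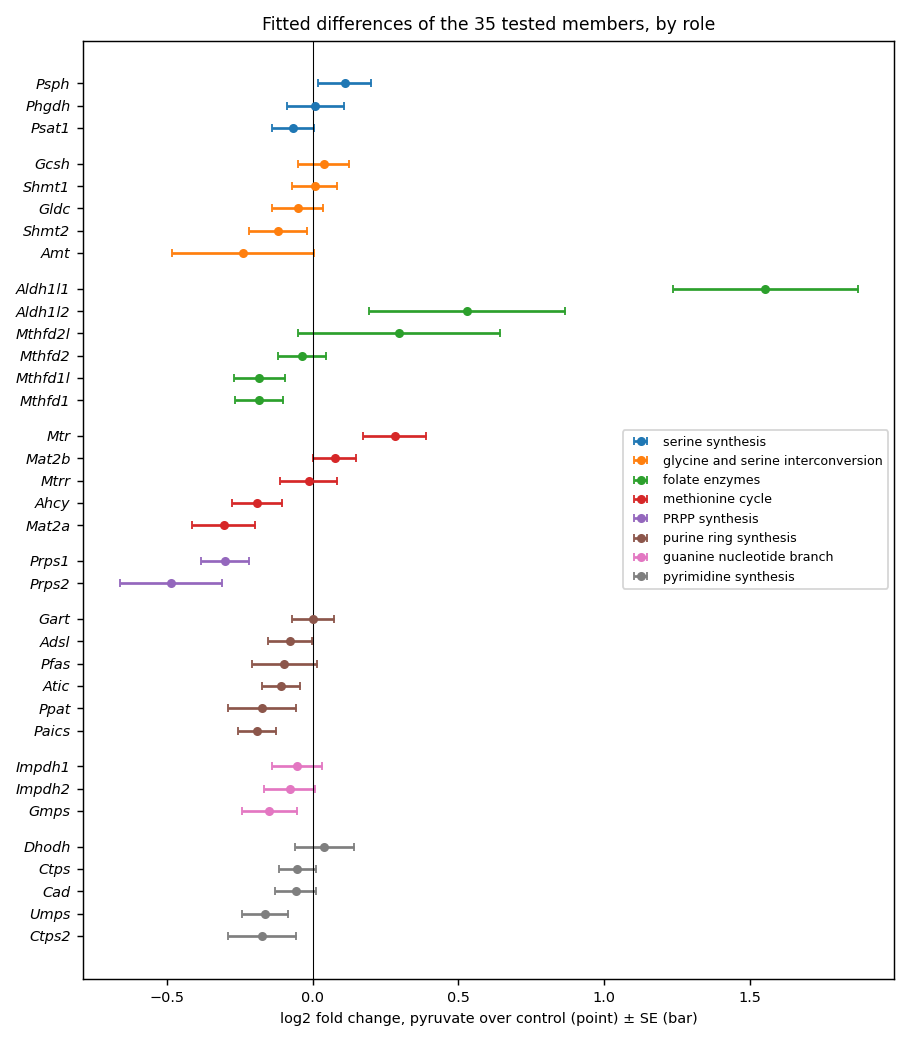
Fitted log2 fold change, pyruvate over control, with its SE for each of the 35 tested genes, coloured by role. Aldh1l1 lies at 1.55 on the log2 scale, Prps2 at -0.49, and 28 genes lie between -0.24 and 0.11.

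The enzymes of serine synthesis overlapped between media. Phgdh (ENSMUSG00000053398, chromosome 3, 98313170 to 98339990) had 256, 255 and 264 CPM in pyruvate libraries 1, 2 and 3 against 280.1, 219.6 and 271 CPM in control libraries 1, 2 and 3. Its lowest value was that of control replicate 2, and its log2 fold change was 0.009 (SE 0.099, adjusted p = 0.974 in edgeR). The other controls lay above every pyruvate library. With control replicate 2 left out the log2 fold change was -0.092 (edgeR adjusted p = 0.359). Psat1, the aminotransferase of the middle step, had 140.6, 145 and 136 CPM in pyruvate libraries against 154, 141 and 148 CPM in control libraries, and the groups overlapped. Its log2 fold change was -0.069 (SE 0.072, adjusted p = 0.707 in edgeR). With control replicate 2 left out it was -0.10 (edgeR adjusted p = 0.361), and the groups did not overlap. Psph, the phosphatase that releases serine, averaged 47.2 ± 2.50 CPM in pyruvate and 43.8 ± 3.35 CPM in control (SD, n = 3 each), and 452 bases of its exons are shared with Cct6a on the opposite strand.

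The enzymes joining serine, glycine and folate also overlapped between media. Shmt2 had 330.2, 315 and 326 CPM in pyruvate libraries against 386, 300.02 and 369 CPM in control libraries. Control replicate 2 lay below all other libraries and the remaining controls above all of them. The log2 fold change was -0.12 with all libraries (edgeR adjusted p = 0.624). With control replicate 2 left out it was -0.22 (adjusted p = 0.0540). Shmt1, its cytosolic counterpart, averaged 209 ± 8.27 CPM in pyruvate and 208 ± 14.0 CPM in control (SD, n = 3 each). Of the glycine cleavage system, which breaks glycine down in mitochondria, Gcsh had 98.03, 93.3 and 89.4 CPM in pyruvate libraries against 95.5, 82.5 and 95.4 CPM in control libraries. Gldc, the decarboxylase of that system, averaged 25.9 ± 1.07 and 26.9 ± 1.17 CPM, and Amt, its aminomethyltransferase, 2.08 ± 0.437 and 2.47 ± 0.629 CPM, in pyruvate and control.

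Among the folate enzymes, Aldh1l1 had the largest fold difference of the 35 genes and both formate-folate ligases, Mthfd1 and Mthfd1l, lay slightly lower in pyruvate medium. Aldh1l1 (ENSMUSG00000030088, chromosome 6, 90486427 to 90600203) had 1.99, 1.59 and 1.499 CPM in pyruvate libraries against 0.37, 0.51 and 0.86 CPM in control libraries. These are 50, 41 and 33 counts in pyruvate medium and 8, 13 and 18 counts in control, so each control library is above the floor of 3 counts and the groups did not overlap. The means were 1.69 ± 0.262 CPM in pyruvate and 0.579 ± 0.253 CPM in control (SD, n = 3 each), a 2.92-fold difference. The fitted log2 fold change was 1.55 (SE 0.32, adjusted p = 0.116 in edgeR, 0.0115 in DESeq2). Without control replicate 2 it was 1.47 (adjusted p = 0.0536 in edgeR). Exons of Aldh1l1 share 105 bases with Gm45901 on the same strand, which had 0 or 1 count per library, and 499 bases with Gm15756 on the opposite strand, which had 0.

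Aldh1l2 stood at 0.836 ± 0.237 CPM in pyruvate and 0.573 ± 0.152 CPM in control, or 16 to 24 counts per pyruvate library and 9 to 15 counts per control library, and the groups overlapped. Exons of Aldh1l2 share 1056 bases with D10Wsu102e on the opposite strand, which had 4292 to 5964 counts per library. With the strand setting unknown, the Aldh1l2 count is uncertain. Mthfd2l, a low-level relative of Mthfd2, stood at 0.744 ± 0.267 and 0.605 ± 0.0597 CPM in pyruvate and control, and Ftcd, a folate enzyme of histidine breakdown, at 0.19 ± 0.0774 and 0.166 ± 0.101 CPM. Mthfd1, which interconverts folate-bound carbon in the cytosol, had 108, 121 and 127 CPM in pyruvate libraries against 135, 132 and 137 CPM in control libraries. The groups did not overlap, with a log2 fold change of -0.18 (SE 0.082, adjusted p = 0.352 in edgeR). Mthfd1l, which makes formate in mitochondria, had 17.1, 16.9 and 17.4 CPM in pyruvate libraries against 19.3, 19.04 and 20.04 CPM in control libraries. These groups did not overlap either (log2 fold change -0.18, SE 0.088, adjusted p = 0.385 in edgeR). Mthfd2, the mitochondrial dehydrogenase of this route, had 98.9, 98.1 and 94.9 CPM in pyruvate libraries against 109, 93.3 and 97.5 CPM in control libraries and overlapped.

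In the methionine cycle, Mtr was higher and Mat2a and Ahcy lower in pyruvate medium, each without overlap, while Mtrr overlapped. Mtr (ENSMUSG00000021311, chromosome 13, 12182712 to 12258113), methionine synthase, had 314, 285.4 and 291 CPM in pyruvate libraries against 219, 285.3 and 229 CPM in control libraries. Control replicate 2 thus lay at the level of pyruvate replicate 2, and controls 1 and 3 lay well below. With all libraries the log2 fold change was 0.28 (SE 0.11, adjusted p = 0.294 in edgeR). With that control left out, Mtr rose, with a log2 fold change of 0.41 over 3 pyruvate and 2 control libraries (SE 0.063, edgeR adjusted p = 0.0109). Mtrr, the reductase that keeps methionine synthase active, averaged 35.9 ± 2.52 CPM in pyruvate and 36.3 ± 3.005 CPM in control.

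Mat2a (ENSMUSG00000053907, chromosome 6, 72432799 to 72439558) encodes the catalytic subunit that makes S-adenosylmethionine. It had 206, 243 and 216 CPM in pyruvate libraries against 255, 314 and 252 CPM in control libraries. Control replicate 2 was the highest of the 6, and the groups did not overlap. The log2 fold change was -0.31 (SE 0.11, adjusted p = 0.260 in edgeR), -0.20 without control replicate 2 (adjusted p = 0.153), and -0.24 with each library's trend with GC content and transcript length removed (adjusted p = 0.0444). The exons of Mat2a share 508 bases with Particl on the opposite strand, which leaves part of its count uncertain. Mat2b, the regulatory subunit, averaged 78.0 ± 2.80 CPM in pyruvate and 74.0 ± 1.504 CPM in control without overlap (log2 fold change 0.076, adjusted p = 0.679 in edgeR). Ahcy, which clears S-adenosylhomocysteine, had 90.9, 83.9 and 88.8 CPM in pyruvate libraries against 108, 91.6 and 101 CPM in control libraries. Its groups did not overlap (log2 fold change -0.19, SE 0.087, adjusted p = 0.365 in edgeR). Without control replicate 2 the log2 fold change was -0.25 (edgeR adjusted p = 0.0636).

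Both PRPP synthetase genes lay lower in pyruvate medium. Prps1 (ENSMUSG00000031432, chromosome X, 140456613 to 140476140) had 40.7, 44.2 and 45.2 CPM in pyruvate libraries against 54.04, 53.3 and 52.9 CPM in control libraries. The controls lay close together and above every pyruvate library. The log2 fold change was -0.30 (SE 0.081, edgeR adjusted p = 0.175), and it was -0.30 with control replicate 2 left out (0.0573). Prps2 had 11.3, 12.6 and 10.4 CPM in pyruvate libraries against 15.4, 20.1 and 12.6 CPM in control libraries. The groups overlapped narrowly, with control replicate 2 highest (log2 fold change -0.49, SE 0.175, edgeR adjusted p = 0.268, and -0.29 with that control left out). A related copy, Prps1l3, had 713, 884 and 807 counts in pyruvate libraries and 704, 989 and 737 in control libraries, and Prps1l1 had 0. Reads of Prps1 and Prps1l3 may be split between them, so the Prps1 count is uncertain.

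**Figure D3:**
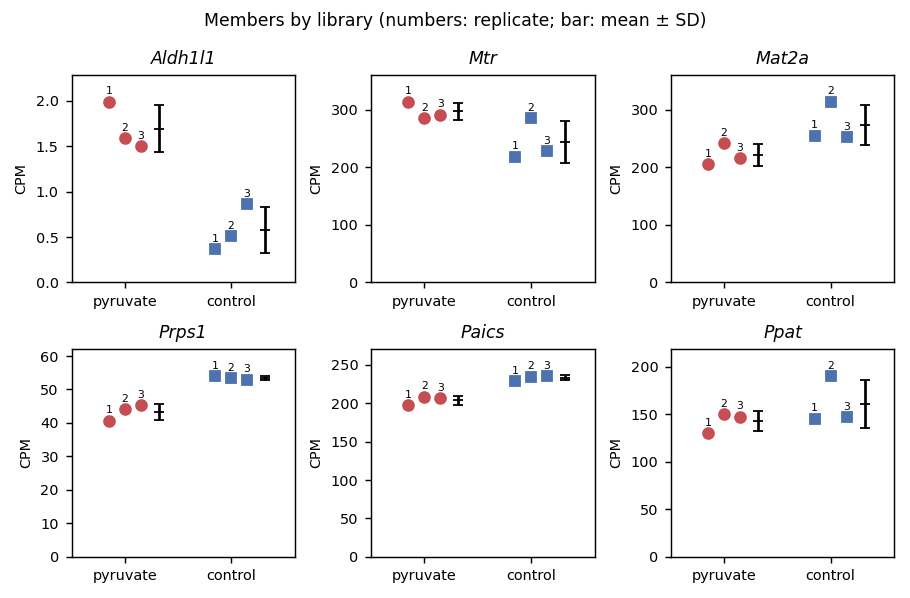
CPM of 6 genes in each library, pyruvate left and control right, numbered by replicate, with the mean ± SD. Aldh1l1, Prps1, Paics, Mat2a and, narrowly, Mtr do not overlap between media, and control replicate 2 is highest of the 6 libraries for Mat2a and Ppat.

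Of the 6 purine ring genes, 5 had a log2 fold change below 0 and 1 above it, where 48.1% of all genes tested lay above 0. Of the 6, 2 did not overlap between media, Paics and Atic, both lower. Of all genes tested, 22.5% did not overlap, 10.6% of them all being lower in pyruvate medium. Paics (ENSMUSG00000029247, chromosome 5, 76951307 to 76967509), a bifunctional enzyme of the middle of the pathway, had 198, 209 and 206 CPM in pyruvate libraries against 229, 235 and 236 CPM in control libraries. The log2 fold change was -0.19 (SE 0.066, edgeR adjusted p = 0.251), and it was -0.19 with control replicate 2 left out (adjusted p = 0.0933). Atic, which closes the ring with folate-bound carbon, averaged 257 ± 0.993 CPM in pyruvate and 277 ± 5.44 CPM in control (log2 fold change -0.11, adjusted p = 0.475 in edgeR). Gart, which also uses folate-bound carbon, had 219, 201 and 209 CPM in pyruvate libraries against 214, 198 and 216 CPM in control libraries and overlapped. Ppat, which commits PRPP to purines, averaged 143 ± 10.6 and 161 ± 25.5 CPM, Pfas, an amidotransferase of the early ring, 289 ± 19.6 and 309 ± 46.1 CPM, and Adsl, a lyase of the later ring, 131 ± 3.89 and 138 ± 7.94 CPM, in pyruvate and control, all overlapping. Control replicate 2 was the highest library for Ppat and for Pfas. With it left out the edgeR log2 fold change moved from -0.17 to -0.036 for Ppat and from -0.098 to 0.031 for Pfas. For Adsl the move was from -0.078 to -0.12.

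Ppat and Paics lie on opposite strands of chromosome 5 and overlap at their 5′ ends. Their RefSeq start sites are 276 bases apart and their exons share 272 bases, which leaves part of both counts uncertain. Control replicate 2 differed from the mean of the other controls by 0.38 on the log2 scale for Ppat and by 0.015 for Paics. Promoter windows of RefSeq on GRCm38.p6, from 250 bases before to 50 after the start site, are shown for this pair because the genes adjoin. They are shown for Aldh1l1, Mat2a and Mtr because these passed in DESeq2, without control replicate 2 or with GC and length trends removed, and for Prps1 as the PRPP synthetase gene of lower p. The RefSeq start of Aldh1l1 lies inside the span that GENCODE gives the gene. Each is printed 5′ to 3′ on the strand of its gene, with matches on either strand in capitals to CACGTG (the E-box), CCAAT, TGATGNAA (the core of the ATF4 element) and TTTCCCGC (E2F).
Paics, chr5:76951052-76951351, plus strand: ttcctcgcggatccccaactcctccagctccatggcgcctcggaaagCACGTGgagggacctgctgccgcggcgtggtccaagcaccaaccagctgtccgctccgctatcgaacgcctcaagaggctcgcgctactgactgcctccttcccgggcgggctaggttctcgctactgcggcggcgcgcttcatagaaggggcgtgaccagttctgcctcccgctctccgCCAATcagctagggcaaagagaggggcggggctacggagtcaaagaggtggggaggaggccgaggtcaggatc
Ppat, chr5:76951529-76951828, minus strand: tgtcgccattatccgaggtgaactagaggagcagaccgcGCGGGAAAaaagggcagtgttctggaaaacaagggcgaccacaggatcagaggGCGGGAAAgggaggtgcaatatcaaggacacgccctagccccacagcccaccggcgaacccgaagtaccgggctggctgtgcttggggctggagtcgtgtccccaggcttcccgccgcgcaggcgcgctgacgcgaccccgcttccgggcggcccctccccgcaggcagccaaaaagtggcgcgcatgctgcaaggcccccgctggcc
Prps1, chrX:140456353-140456652, plus strand: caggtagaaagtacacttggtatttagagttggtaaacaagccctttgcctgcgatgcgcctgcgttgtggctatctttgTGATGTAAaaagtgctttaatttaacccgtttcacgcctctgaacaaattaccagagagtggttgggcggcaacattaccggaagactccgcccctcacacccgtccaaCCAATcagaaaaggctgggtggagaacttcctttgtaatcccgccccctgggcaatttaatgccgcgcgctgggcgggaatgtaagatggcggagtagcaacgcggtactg
Aldh1l1, chr6:90550543-90550842, plus strand: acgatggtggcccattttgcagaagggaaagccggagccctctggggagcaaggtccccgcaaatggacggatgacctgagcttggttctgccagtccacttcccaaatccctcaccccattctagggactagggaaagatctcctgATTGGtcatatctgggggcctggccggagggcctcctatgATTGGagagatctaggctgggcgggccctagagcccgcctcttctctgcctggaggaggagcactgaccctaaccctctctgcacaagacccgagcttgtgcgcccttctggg
Mat2a, chr6:72439507-72439806, minus strand: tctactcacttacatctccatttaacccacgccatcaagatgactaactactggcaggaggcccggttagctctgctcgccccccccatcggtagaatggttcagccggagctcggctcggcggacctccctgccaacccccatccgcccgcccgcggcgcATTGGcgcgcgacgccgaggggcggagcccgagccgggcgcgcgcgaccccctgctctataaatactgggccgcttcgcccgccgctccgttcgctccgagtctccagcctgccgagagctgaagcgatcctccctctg
Mtr, chr13:12258064-12258363, minus strand: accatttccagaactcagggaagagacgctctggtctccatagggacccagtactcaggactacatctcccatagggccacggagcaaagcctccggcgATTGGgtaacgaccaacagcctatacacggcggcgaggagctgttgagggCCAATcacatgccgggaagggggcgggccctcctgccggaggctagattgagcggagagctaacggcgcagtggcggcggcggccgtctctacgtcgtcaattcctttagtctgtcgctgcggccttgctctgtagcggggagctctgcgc
The Paics window holds the E-box 203 bases and CCAAT 23 bases before the start, and the Ppat window holds TTTCCCGC at 211 and 158 bases before it. The Prps1 window holds the ATF4 core 170 bases and CCAAT 61 bases before the start. CCAAT matched 103 and 63 bases before the start of Aldh1l1, 89 bases before that of Mat2a and 151 and 101 bases before that of Mtr. Of all 32851 promoter windows, 37.4% hold CCAAT, 7.15% the E-box, 3.97% the ATF4 core and 1.07% TTTCCCGC. A match is a description of these letters only.

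The guanine branch and pyrimidine synthesis showed small differences. Of their 8 genes 1, Ctps, did not overlap between media, where 22.5% of all genes tested did not. Impdh2 had 315, 301 and 304 CPM in pyruvate libraries against 348, 287 and 337 CPM in control libraries. Impdh1 had 159.8, 144 and 148 CPM in pyruvate libraries against 169.9, 144 and 155 CPM in control libraries. Control replicate 2 was the lowest library for both, below every pyruvate library, and the groups overlapped. For Impdh2 the other controls lay above every pyruvate library. With control replicate 2 left out the log2 fold change was -0.16 for Impdh2 (edgeR adjusted p = 0.130) and -0.11 for Impdh1 (edgeR adjusted p = 0.378). Gmps, which completes GMP, averaged 187 ± 16.98 CPM in pyruvate and 208 ± 17.3 CPM in control. Cad had 774, 716 and 758 CPM in pyruvate libraries against 809, 761 and 772 CPM in control libraries. It had the highest counts of the 36 genes, and its log2 fold change was -0.059 (SE 0.069, adjusted p = 0.734 in edgeR). Ctps had 307, 312 and 316 CPM in pyruvate libraries against 323, 329.6 and 318 CPM in control libraries (log2 fold change -0.053, SE 0.064, adjusted p = 0.742 in edgeR). Umps, which makes UMP, had 118, 126 and 131 CPM in pyruvate libraries against 145, 130.3 and 145 CPM in control libraries (log2 fold change -0.16, SE 0.080, adjusted p = 0.394 in edgeR). Its overlap came from control replicate 2, and with that control left out the log2 fold change was -0.21 (edgeR adjusted p = 0.0856). Dhodh, the mitochondrial step, averaged 23.01 ± 1.90 and 22.4 ± 1.48 CPM, and Ctps2, the second CTP synthetase, 7.87 ± 0.528 and 8.90 ± 0.622 CPM, in pyruvate and control.

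Summed by role, PRPP synthesis and purine ring synthesis lay lower in pyruvate medium under each of 4 scalings tried. The 4 scalings share the same counts, and the sums were not tested. Of the genes in these 2 roles, 0 passed edgeR's test with all libraries. The PRPP synthetases summed to 52.0, 56.8 and 55.6 CPM in pyruvate libraries against 69.4, 73.5 and 65.5 CPM in control libraries. The purine ring genes summed to 1203, 1238 and 1260.07 CPM in pyruvate libraries against 1287, 1391 and 1308 CPM in control libraries. The difference in mean was -21.1% for PRPP synthesis, and -19.3% to -21.4% over the scalings. For the purine ring it was -7.15%, and -5.10% to -7.52% over the scalings. Control replicate 2 was the highest library in both sums and is kept in all 4 scalings, so these ranges do not cover leaving it out. The other controls also lay above every pyruvate library in both sums. All 36 genes together summed to 5201, 5174 and 5246 CPM in pyruvate libraries against 5545, 5430.4 and 5449 CPM in control libraries, without overlap. That separation rested on the scaling: with library totals alone the pyruvate libraries stood at 5277, 5221 and 5290.4 unadjusted CPM, and control replicate 2, at 5238 against 5557 and 5458 for the other controls, fell among them. Sums of the folate, guanine and pyrimidine genes did not overlap under TMM or DESeq2's size factors and did overlap under library totals or upper-quartile scaling. Sums of the serine, glycine and methionine genes overlapped under all 4.

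Ratios between paired enzymes within a library do not depend on scaling, apart from a prior count of 2 added before the logarithm. Of 10 ratios, 2 did not overlap between media. The share of other gene pairs that did not overlap was not computed. Of the genes in these 2 ratios, Mat2a, Mat2b and Aldh1l1 did not overlap singly either. The log2 ratio of Mat2b to Mat2a per length was -1.499, -1.83 and -1.65 in pyruvate libraries against -1.97, -2.21 and -1.93 in control libraries. Every pyruvate library was higher, by 0.38 in the mean (exact two-sided permutation test p = 0.1, 0.5 after Benjamini-Hochberg adjustment over 10 pairs). The log2 ratio of Aldh1l2 to Aldh1l1 was -1.97, -1.98 and -1.16 in pyruvate libraries against -0.59, -0.55 and -0.97 in control libraries. Every pyruvate library was lower, by 1.00 in the mean (difference -0.998, exact p = 0.1, adjusted 0.5). At the low counts of Aldh1l2 and Aldh1l1 the prior count draws the 2 levels together within a library, so this ratio is approximate. The Aldh1l2 count is also uncertain because its exons overlap D10Wsu102e. With 3 libraries a group the test cannot go below 0.1. Mitochondrial Shmt2 exceeded cytosolic Shmt1 1.89- to 2.23-fold per length in every library, with mean log2 ratios of 0.96 ± 0.045 in pyruvate and 1.07 ± 0.11 in control (exact p = 0.2). Impdh2 exceeded Impdh1 2.11- to 2.32-fold, with mean log2 ratios of 1.12 ± 0.043 in pyruvate and 1.146 ± 0.062 in control (exact p = 0.7, difference -0.022). The other 6 pairs gave exact p between 0.3 and 1.0.

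**Figure D4:**
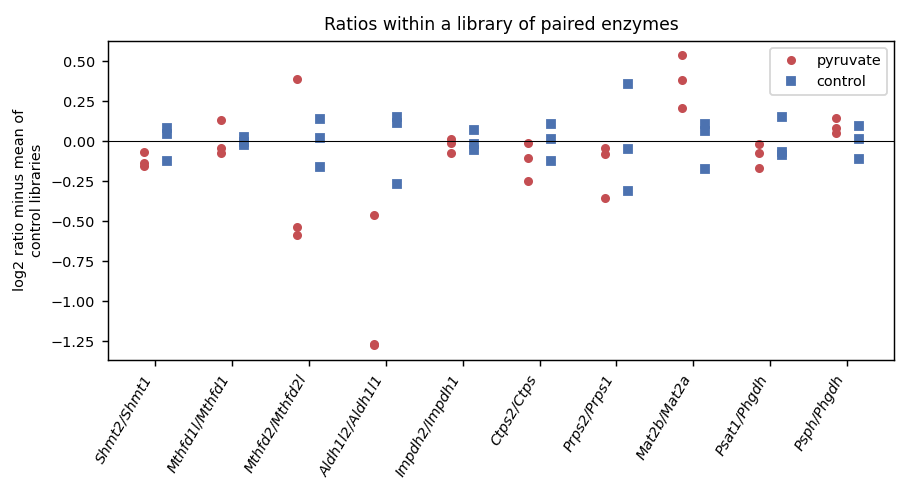
Log2 ratio of paired enzymes within each library, minus the mean of the 3 control libraries, for pyruvate (circles, left) and control (squares, right). Mat2b to Mat2a lies higher in every pyruvate library and Aldh1l2 to Aldh1l1 lower, while the other 8 pairs overlap.

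Control replicate 2 lay outside the range of the other 5 libraries for 17 of the 35 genes, above it for 7 (all genes tested, 31.2%) and below it for 10 (all genes tested, 29.3%). Across the 35 genes its deviation from the other controls went with the GC content of the longest transcript (Pearson r = -0.52, Spearman rho = -0.44, a description across genes that share these libraries, with r = -0.51 across all genes tested). Prps2, Ppat, Mtr and Mat2a, of 42.0% to 46.0% GC, stood 0.53, 0.38, 0.35 and 0.31 higher in it on the log2 scale. Phgdh and Shmt2, of 57.2% and 57.4% GC, stood at -0.33 each. Several genes were against this order. Pfas stood 0.36 higher at 53.02% GC, and Mthfd2l, Ctps2 and Gcsh, of 40.1%, 43.7% and 47.5% GC, stood at -0.18, -0.14 and -0.21. Cad, of 57.4% GC, stood at only -0.056. With the GC and length trend of each library removed, edgeR called 2 of the 35 genes, Aldh1l1 (log2 fold change 1.49, adjusted p = 0.0351), which rose, and Mat2a, which fell, where 3.95% of all genes were called (1.58% higher and 2.37% lower). In that fit Ahcy reached adjusted p = 0.0533, Prps1 and Paics 0.0561 each, and Mtr 0.0650.

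**Figure D5:**
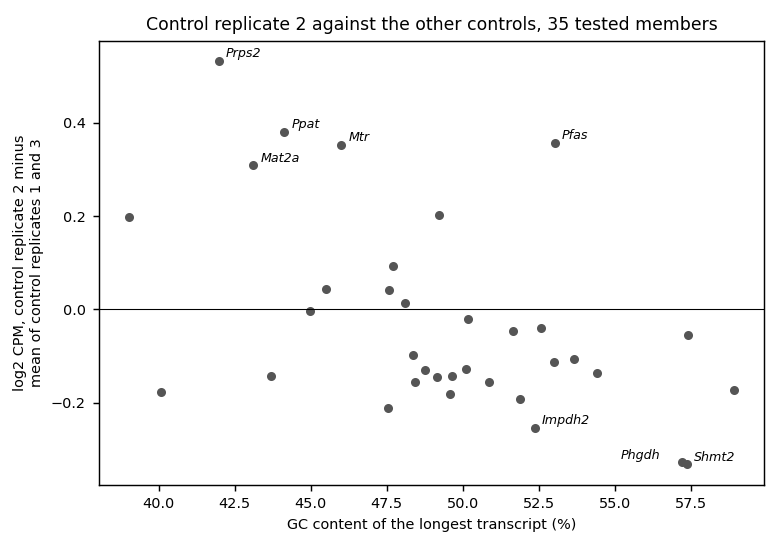
Log2 CPM of control replicate 2 minus the mean of control replicates 1 and 3 against the GC content of the longest transcript, 1 point per tested gene. Prps2 stands highest at 0.53 and Shmt2 and Phgdh lowest at -0.33 each.

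Genes that adjoin these routes were read from 6 fixed lists, and 0 passed edgeR's test with all libraries. In the folate and thymidylate list, Tyms, thymidylate synthase, stood at 48.8 ± 1.35 CPM in pyruvate and 56.6 ± 1.24 CPM in control (log2 fold change -0.21, adjusted p = 0.271). Of 10 tested genes of serine, glycine and sulfur amino acid handling, 0 passed with or without control replicate 2. Sfxn1, a mitochondrial serine carrier, stood at 3.68 ± 0.213 CPM in pyruvate and 2.17 ± 0.258 CPM in control without overlap (log2 fold change 0.76, adjusted p = 0.124). Of this list it alone passed once GC and length trends were removed, and rose (adjusted p = 0.0288). Slc1a4, a serine and alanine transporter, stood at 23.3 ± 5.38 CPM in pyruvate and 16.2 ± 0.288 CPM in control (log2 fold change 0.53, adjusted p = 0.201).

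Of 13 tested purine salvage genes 2 lay above 0 and 11 below, where 48.1% of all genes tested lay above 0. With or without control replicate 2, 0 passed. The lowest p values were those of Pnp, a nucleoside phosphorylase, at 5.06 ± 0.322 CPM in pyruvate and 6.86 ± 0.377 CPM in control, and Ak1, an adenylate kinase, at 1.19 ± 0.295 CPM in pyruvate and 2.15 ± 0.464 CPM in control (adjusted p = 0.187 and 0.213). Exons of Pnp overlap genes on both strands. With GC and length trends removed Ampd2, an AMP deaminase named here after its value was seen, fell (log2 fold change -0.26, adjusted p = 0.0219). Of 16 genes of pyrimidine salvage and deoxynucleotide supply, 5 lay above 0 and 11 below, beside the same 48.1% of all genes above 0. Without control replicate 2 Rrm2 and Dut fell (edgeR adjusted p = 0.0340 and 0.0189), where 1.82% of all genes were called lower. Rrm2, the small subunit of ribonucleotide reductase, had 84.0, 109.5 and 108 CPM in pyruvate libraries against 141, 154 and 141 CPM in control libraries, without overlap. Rrm2 also fell in DESeq2 (adjusted p = 0.0057), and Rrm2 and Dut fell with GC and length trends removed (0.0224 and 0.0424). Dut, which makes dUMP, the substrate of thymidylate synthase, stood at 109 ± 3.53 CPM in pyruvate and 129.7 ± 13.1 CPM in control. Upp1, a uridine phosphorylase, had 17.4, 7.71 and 6.77 CPM in pyruvate libraries against 5.38, 3.73 and 5.06 CPM in control libraries, with pyruvate replicate 1 far above the rest (adjusted p = 0.210 in edgeR). DESeq2 called Upp1 higher (adjusted p = 0.0223). Of 9 polyamine and methylthioadenosine genes 3 lay above 0 and 6 below. Sms, spermine synthase, had 13.5, 14.0 and 15.6 CPM in pyruvate libraries against 19.9, 24.02 and 19.996 CPM in control libraries (log2 fold change -0.57, adjusted p = 0.116), and it fell without control replicate 2 (-0.48, adjusted p = 0.0344), in DESeq2 (0.0057) and with GC and length trends removed (0.0176). Amd1, which feeds S-adenosylmethionine into polyamines, stood at 56.2 ± 1.67 CPM in pyruvate and 69.3 ± 6.07 CPM in control (adjusted p = 0.200). Of the 4 regulators, Mycn stood at 138 ± 2.56 CPM in pyruvate and 163 ± 3.42 CPM in control (log2 fold change -0.24, adjusted p = 0.182), and Atf4 at 140.0 ± 8.52 CPM in pyruvate and 127 ± 11.5 CPM in control (adjusted p = 0.508).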

How the data were processed

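Per the labels' protocols, TRIzol extraction was followed by column clean-up and stranded mRNA library preparation. The deposited table holds raw whole-number counts, 1 column per library. Tools listed in the submitters' processing notes are bcl2fastq 2.20, cutadapt 4.6, STAR 2.7.11a and HTSeq 2.0.5, with build mm10. For the annotation release and strand setting the sources used here give nothing, so the 13 of 36 genes with an exon overlapping another gene are uncertain. The table has 3 more columns, which matched none of the samples and were not read.

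Counts were analysed with edgeR 4.0.16 in R 4.3.3: genes kept by filterByExpr (minimum count 10), TMM scaling, robust quasi-likelihood test without covariate, and Benjamini-Hochberg adjustment over all 14912 tested genes at 0.05. Log2 fold changes are pyruvate over control, and each SE is that value over the root of its F statistic. Exon lengths, positions and GC content came from GENCODE M21 on GRCm38. Alternatives were other scalings and filters, DESeq2 1.42.0, limma 3.58.1 (voom), the replicate number as a block, spline removal of GC and length trends (5 degrees of freedom each), and leaving out each library. No 2 libraries of a group agreed within sampling noise (chi-square per gene 2.97 to 43.3). On counts simulated for 14756 genes, the test found 51 of 100 genes given a 1.5-fold change, 91 of 100 given a 2-fold change, and 9 unchanged genes. The changed genes were drawn from those averaging above 2 CPM. Noise was drawn for each gene on its own, without the GC trend that control replicate 2 shares across genes. The rates therefore need not hold for the real comparison, and do not cover Aldh1l1, Aldh1l2 and Mthfd2l, which lie at lower levels.

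The 36 genes, the lists and the alternatives were chosen with earlier results of these data known. Values in every library are given for genes passing the test with all libraries or without control replicate 2, the 10 of lowest p, and the 2 of highest level per length in each role, and for the 2 of lowest p in each further list by value or mean. Other values are mean ± SD over 3 libraries. Promoter windows were found for 33 of the 36. A result in the further lists is not reported here.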

Additional observations from a re-analysis of the deposited data

How the results depend on the processing

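With all 6 libraries and no covariate, 8 genes of the whole table and 0 of the 35 were called. The whole-table count was 14 under library totals, 15 under upper-quartile scaling, 83 with no low-count filter, 317 in DESeq2, 589 with GC and length trends removed, and 0 to 625 on leaving out 1 library, highest without control replicate 2. Of the 35, DESeq2 called 1, the GC and length fit 2, and leaving out 1 library 0 to 1. Their median log2 fold change was -0.11 in the GC and length fit and -0.087 to -0.035 on leaving out 1 library. The deviations of same-numbered libraries correlated at 0.311, 0.311 and -0.0726, the first 2 being the highest of 9 pairings across media. Since not every pair correlated and no label ties the numbers, they were not taken to pair the libraries. With the replicate block 265 genes were called (1.78%), 0 of them among the 35. With the block and GC and length removal 1439 were called (9.65%), 9 of them among the 35 (median -0.11): Mtr (adjusted p = 0.0086) and Aldh1l1 (0.0159) higher, and Mat2a (0.0099), Ahcy (0.0240), Mthfd1 (0.0254), Prps2 (0.0269), Paics (0.0279), Prps1 (0.0343) and Shmt2 (0.0387) lower.

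Genes near 0 changed sign. Gart was -0.0040 with DESeq2 size factors, -0.0039 in DESeq2, -0.058 in the GC and length fit and -0.058 with the block added. In those last fits Phgdh was -0.045 and -0.047, Shmt1 -0.011 and -0.0099, and Dhodh -0.0030 and -0.0042. Mtrr was 0.018 under library totals and 0.0024 under upper-quartile scaling. On leaving out 1 library the ranges were -0.092 to 0.076 for Phgdh, -0.041 to 0.057 for Shmt1, -0.029 to 0.076 for Gcsh, -0.084 to 0.030 for Mthfd2, -0.066 to 0.056 for Mtrr, -0.035 to 0.031 for Gart, -0.17 to 0.031 for Pfas, -0.11 to 0.010 for Impdh1 and -0.011 to 0.11 for Dhodh. The difference in log2 ratio ranged from -0.060 to 0.046 for Mthfd1l to Mthfd1, -0.049 to 0.012 for Impdh2 to Impdh1 and -0.31 to 0.020 for Prps2 to Prps1. The causes were not tested. Depth limits Ftcd, Aldh1l1, Aldh1l2 and Mthfd2l, at 2 to 50 counts per library.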

Other observations

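Across the 33 of these genes with a promoter window in RefSeq (GRCm38.p6), CCAAT was present for 21, against 41.1% of all 27025 genes with a window. The E-box was present for 3, Atic, Impdh2 and Paics, against 8.09% of genes. TTTCCCGC was present for 2, Ppat and Prps2 (1.24% of genes), and the ATF4 core for 1, Prps1 (4.51%). These are counts of letters in the windows, with no test.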
